A study of Mus musculus with 12 samples.

Results

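Arterial cells of mouse bone marrow were compared with cells sorted and labelled as sinusoidal, by RNA sequencing of 3 libraries each. These 6 libraries were chosen by their labels and are 6 of the 12 in the series, which holds 4 sorted populations. All came from untreated B6 mice, and marrow cells were freed by crushing tibia, femur and iliac bone. The arterial gate took CD45- and CD31+ cells that were Sca1+ and CD200-, and the label of the sinusoidal cells names CD45-, Sca1+ and CD31+. Of the other populations, the CD200-high capillaries were CD45-, EMCN-, CD31+, Sca1+ and CD200Hi, while the type H vessels were CD45-, CD31+, Sca1+ and EMCN+. As written, the sinusoidal gate contains the arterial gate. Biological triplicates came from 6 mice, and each population carries mouse numbers 1 to 3 in the labels, which do not say how mice were combined.

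Marrow arteries and arterioles carry oxygenated blood into the marrow, and their endothelium is known for connexin 40, ephrin B2 and Notch ligands. Sinusoids are wide, fenestrated vessels that drain the marrow, scavenge macromolecules through stabilin receptors and let mature blood cells pass into the circulation. Sca1, encoded by Ly6a, is known to be high on marrow arterial endothelium and low or absent on sinusoidal endothelium. Reticular stromal cells that express the leptin receptor surround both vessel types and supply the chemokine CXCL12 and stem cell factor.

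Levels are given as log2 CPM, the base 2 logarithm of reads per 1e6 of an effective library size. Differences are arterial minus labelled sinusoidal, in log2 ± SE, so that 1 unit is a doubling. A gene was called when the Benjamini-Hochberg adjusted p of limma's test was under 0.05 over all 17086 genes tested, in a fit of group means to all 12 libraries. The SE and p of that fit also carry the spread within the type H and CD200-high libraries, which can exceed that within the groups compared. Listed reads came to 16.2, 15.4 and 9.55 M (1e6 reads) in arterial replicates 1, 2 and 3 and to 16.6, 21.6 and 18.4 M in those labelled sinusoidal. Over the genes tested, log2 CPM correlated between arterial libraries at 0.806 to 0.835 and between libraries labelled sinusoidal at 0.861 to 0.871 (Pearson's r across genes, which are not independent replicates). Between the groups the correlation was 0.697 to 0.767, and arterial replicate 1 gave the 3 highest of these 9 values.

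Of 17086 genes tested, 1748 were called (10.2%). Of these, 1383 were higher in the arterial libraries (8.09% of the genes tested) and 365 were lower (2.14%). The called genes that were higher in arterial had a median difference of 2.95, and those that were lower had one of -1.48. Leaving out 1 library at a time gave 1019 to 1546 called genes. The count was 1082 without arterial replicate 2, 1019 without arterial replicate 3 and 1134 without sinusoidal replicate 2. The number lower in arterial was more sensitive, at 170 and 153 without arterial replicates 2 and 3 and at 145, 142 and 176 without sinusoidal replicates 1, 2 and 3. A fit to the 6 compared libraries alone called 2829 genes (16.6%), 1882 higher (11%) and 947 lower (5.54%). It shared 1596 calls with the fit to 12, which is 91.3% of the 1748 and 56.4% of the 2829, and all 1596 had the same direction. Some counts from this second fit are given below, as the fit to the 6 libraries.

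**Figure D1:**
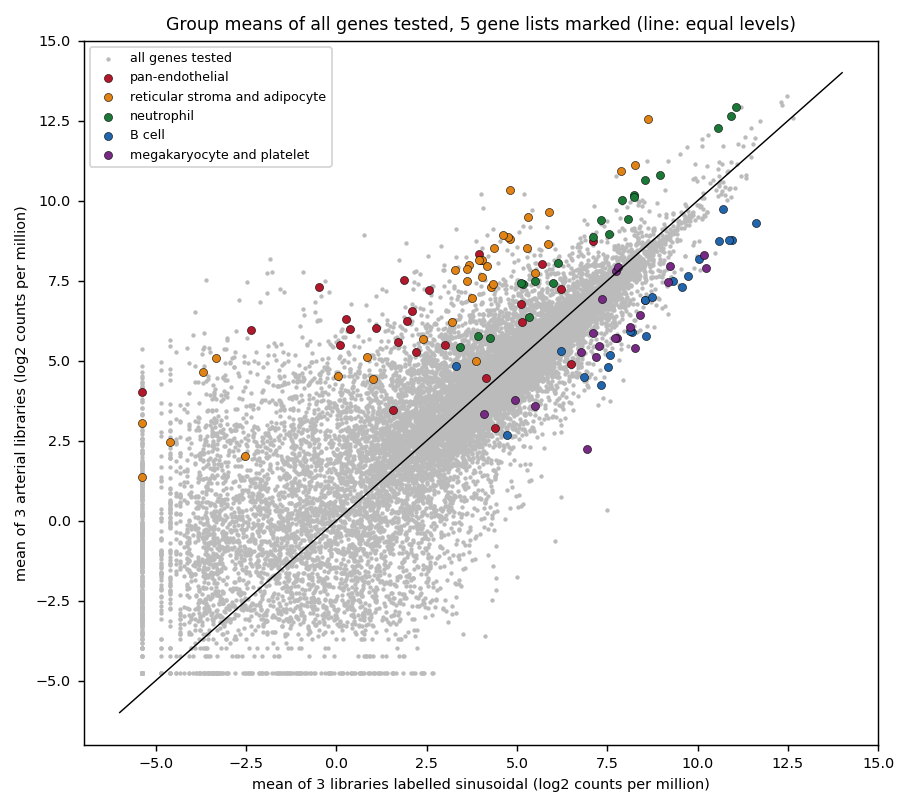
Mean level in the 3 arterial libraries (vertical axis, log2 CPM) against the mean in the 3 libraries labelled sinusoidal (horizontal axis) for the 17086 genes tested, with 5 gene lists in colour and a line of equal levels. Most pan-endothelial and stromal genes lie above the line, neutrophil genes lie above it by a narrow margin, and most B cell and megakaryocyte genes lie below it.

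The transcript of a sorting antigen went against the gate written for the libraries labelled sinusoidal. Ly6a, which encodes Sca1, stood at 9.65, 9.92 and 9.77 in the arterial libraries and at 3.67, 3.62 and 4.87 in those labelled sinusoidal, whose gate gives Sca1+. The difference was 5.73 ± 0.32 (adjusted p = 9.35e-07), a 53.0-fold higher level in arterial, and the groups did not overlap. Low Ly6a departs from the Sca1+ of that gate and not from the sinusoidal name, since Sca1 is known to be low there. As sinusoidal genes were not higher in this group either (below), it is called the libraries labelled sinusoidal throughout. Cd200, whose protein was gated out of the arterial cells, was higher in them, at 7.61, 7.63 and 7.81 against 5.38, 5.39 and 5.51 (2.26 ± 0.16, adjusted p = 6.21e-06). Emcn, the endomucin gene of sinusoids and type H vessels, stood at 6.10, 7.0 and 6.58 in arterial and at 2.22, 2.82 and 1.21 in libraries labelled sinusoidal (4.48 ± 0.37, adjusted p = 2.22e-05). Pecam1, which encodes CD31 and on which both groups were gated, differed by only 1.02 ± 0.24 (adjusted p = 0.0180), at 7.46, 7.19 and 7.09 against 6.44, 6.02 and 6.2. Its call was lost without arterial replicate 1 or 2 and without sinusoidal replicate 2 or 3, and the adjusted p reached 0.0752 without sinusoidal replicate 2. Ptprc, which encodes CD45 and against which both groups were gated, was detected in both, at 7.44, 7.17 and 7.63 against 6.86, 6.25 and 6.53 (0.87 ± 0.36, adjusted p = 0.177). Its groups did not overlap, but it did not pass the test.

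**Figure D2:**
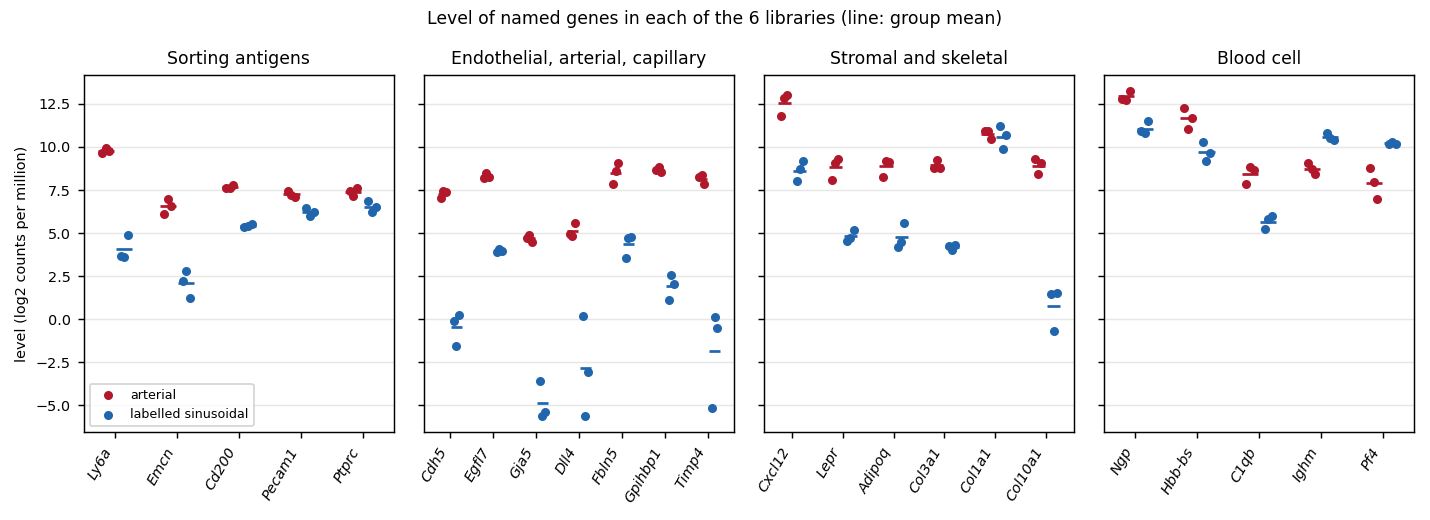
Level in log2 CPM of 23 genes in each arterial library (red) and each library labelled sinusoidal (blue), with a line at each group mean. Ly6a, Cdh5 and Gja5 lie far apart, Pecam1 and Ptprc lie close, Col1a1 overlaps, and Ighm and Pf4 are the genes shown that lie higher in the libraries labelled sinusoidal.

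Genes shared by endothelium of all vessel types were higher in the arterial libraries. Of 25 pan-endothelial genes, 21 were called higher and 0 lower, with a median difference of 4.16 against -0.02 over all genes tested. Cdh5, which encodes the cadherin of endothelial junctions, stood at 7.04, 7.46 and 7.36 in arterial and at -0.12, -1.54 and 0.26 in libraries labelled sinusoidal (7.76 ± 0.44, adjusted p = 9.76e-07). Those 3 low values rest on 16, 8 and 24 reads. Egfl7, a secreted endothelial protein, differed by 4.36 ± 0.18 (adjusted p = 1.41e-07), Ramp2, the adrenomedullin receptor partner, by 5.66 ± 0.22 (adjusted p = 1.41e-07), and Kdr, the main VEGF receptor, by 4.16 ± 0.36 (adjusted p = 2.76e-05). Together the 25 genes took 0.292% ± 0.0329 of listed reads in arterial libraries and 0.0615% ± 0.00419 in those labelled sinusoidal (SD, n = 3 each). In bulk libraries such as these, fewer cells of a type and less RNA per cell cannot be told apart.

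The 4 members not called were Plvap, a protein of fenestrae, which was higher in each arterial library without passing the test, and 3 others. Vwf, von Willebrand factor, made by endothelium and megakaryocytes, stood at 5.39, 4.97 and 4.37 in arterial and higher, at 6.75, 6.25 and 6.48, in the libraries labelled sinusoidal (-1.58 ± 2.06, adjusted p = 0.720). Erg, an ETS transcription factor of both lineages, stood at 3.75, 2.34 and 2.59 against 4.49, 4.21 and 4.47 (-1.50 ± 0.61, adjusted p = 0.162). For both genes the groups did not overlap, but neither passed the test in 12 libraries. Vwf did pass in the fit to the 6 libraries (adjusted p = 0.0102). Tal1, a factor of blood and endothelial development, overlapped between the groups. These 4 genes were singled out after their values were seen.

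Arterial genes were higher in the libraries labelled arterial. Of 26 arterial genes tested, 17 were called higher and 0 lower, with a median difference of 4.64, and the fit to the 6 libraries called 22. The rise was not particular to arterial genes, since capillary genes had a median difference of 5.46. Against the CD200-high libraries, the median difference of the 26 genes, arterial minus CD200-high, was -0.48. Gja5, which encodes connexin 40 of arterial endothelium, had 440, 470 and 212 reads in arterial replicates 1, 2 and 3 and 1, 0 and 0 reads in the libraries labelled sinusoidal. Per effective library size this is a ratio of 1676 (95% exact interval 300.2 to 66250, counting error only). Efnb2, the arterial ligand ephrin B2, had 703, 291 and 285 reads against 3, 0 and 1 (adjusted p = 5.75e-05). Sox17, a transcription factor of arterial fate, had 261, 215 and 186 reads against 0 in all 3, and was at least 112-fold higher than a floor of 3 reads per library.

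Ligands and matrix genes of the arterial wall moved with them. Dll4, the Notch ligand of arterial and tip cells, had 511, 461 and 454 reads in arterial and 20, 0 and 2 in the libraries labelled sinusoidal (adjusted p = 0.000570). Jag1, another Notch ligand, had 360, 237 and 261 reads against 19, 4 and 12 (adjusted p = 0.000548). Fbln5, which encodes a protein of elastic fibres, stood at 7.87, 8.62 and 9.05 against 3.58, 4.74 and 4.78 (4.15 ± 0.42, adjusted p = 8.29e-05). Mgp, an inhibitor of vessel calcification, differed by 4.50 ± 0.36 (adjusted p = 1.58e-05) and Tm4sf1, an endothelial surface protein, by 5.62 ± 0.32 (adjusted p = 1.14e-06). In each of these genes the groups did not overlap.

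9 of the 26 arterial genes were not called in 12 libraries. Among them, Gja4, which encodes connexin 37, stood at 5.05, 5.92 and 5.58 against -5.17, 1.55 and 2.16 (adjusted p = 0.148). Hey1, a Notch target of arteries, stood at 5.69, 5.30 and 5.08 against 2.96, 1.89 and 2.75 (2.82 ± 1.42, adjusted p = 0.269). In the fit to the 6 libraries Hey1 passed (adjusted p = 0.00422) and Gja4 did not (adjusted p = 0.0552). Clu and Nebl were the 2 arterial genes whose groups overlapped.

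As a list, sinusoidal endothelial genes were not higher in the libraries labelled sinusoidal. Of 26 tested, 12 were called higher in the arterial libraries and 1 lower. Stab2, the hyaluronan scavenger receptor that defines sinusoids, had only 25, 30 and 102 reads in the libraries labelled sinusoidal and 67, 76 and 94 in arterial, and its values overlapped (1.49 ± 0.66, adjusted p = 0.204). Stab1, its relative, was higher in arterial, at 4.37, 2.99 and 3.35 against -0.64, 1.41 and 0.42 (3.17 ± 0.52, adjusted p = 0.00206). Flt4, the VEGF receptor of sinusoidal and lymphatic endothelium, was also higher, at 3.80, 5.39 and 3.06 against 1.34, 1.77 and 1.74 (2.46 ± 0.51, adjusted p = 0.00899).

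The lower gene was Clec4g, a lectin of sinusoidal endothelium, with 17, 0 and 0 reads in arterial and 165, 58 and 74 in the libraries labelled sinusoidal (adjusted p = 0.0277). Its call was lost without any single library other than arterial replicate 1. In the fit to the 6 libraries Clec4g was not called (adjusted p = 0.0593), and the 1 lower gene was Sele (adjusted p = 0.0236). Sele had 113 reads over the libraries labelled sinusoidal and 1 over the arterial ones. Of the 26 genes, 16 had all arterial values above and 3 had all values labelled sinusoidal above, where 21.7% and 17.8% of all genes tested did. Among these 3 was Selp, at 3.92, 1.68 and 3.17 in arterial against 4.87, 4.22 and 4.98 (-1.77 ± 1.0, adjusted p = 0.33). Selp was not called in the fit to the 6 libraries either (adjusted p = 0.0832). Tfpi, the tissue factor pathway inhibitor, overlapped between the groups, at 4.20, 5.30 and 3.62 against 5.09, 3.99 and 4.83 (-0.26 ± 0.42, adjusted p = 0.785). In type H libraries the same markers were far higher: Stab2 averaged 9.37 there, and Tfpi averaged 12.01. The libraries labelled sinusoidal were called lower than type H in 23 of the 26 sinusoidal genes, where 13.9% of all genes tested were, and higher in 1, where 14.6% were. The arterial libraries were called lower than type H in 20 of the 26, where 7.96% of all genes tested were. These comparisons with type H share the libraries of the main comparison.

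**Figure D3:**
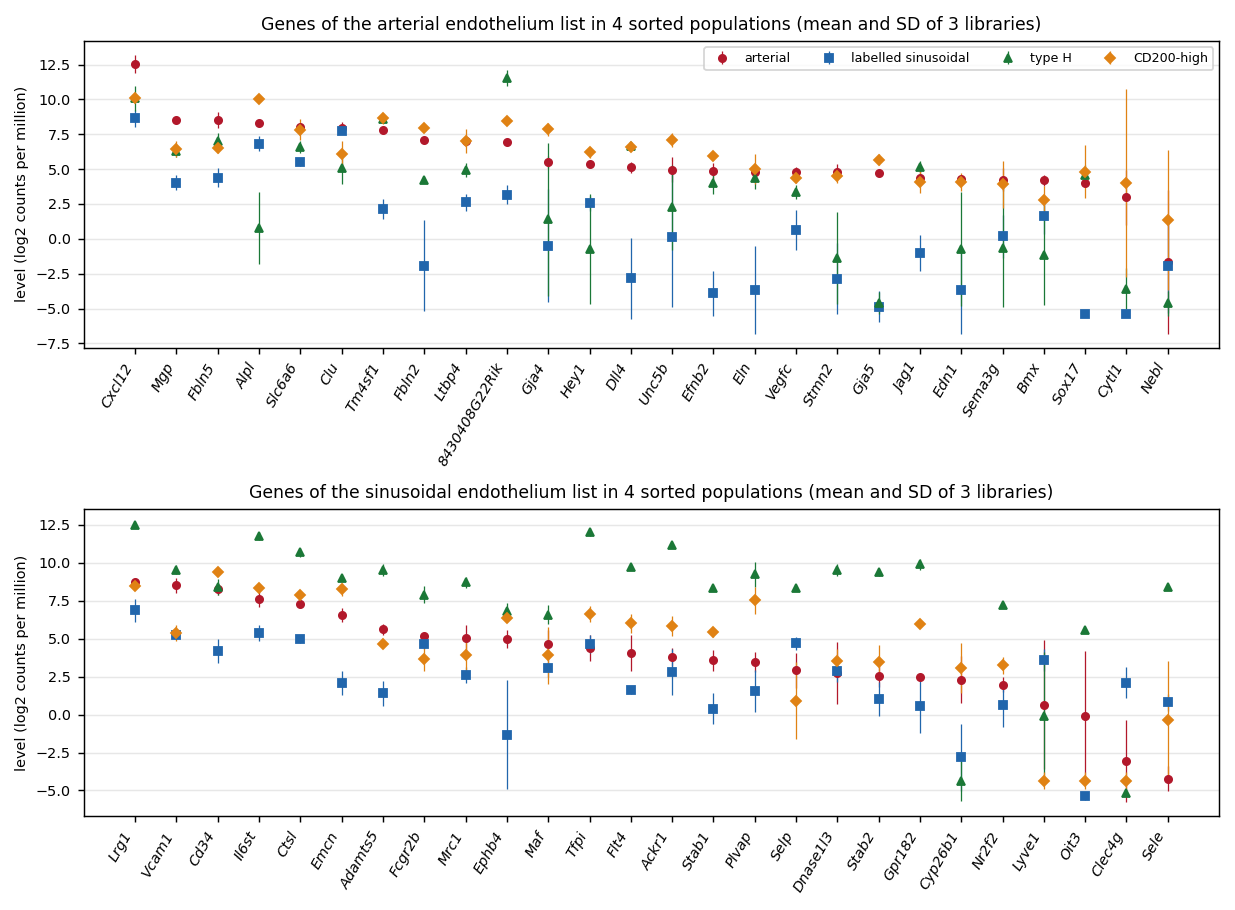
Level in log2 CPM (mean and SD of 3 libraries) of each arterial gene (upper panel) and each sinusoidal gene (lower panel) in arterial, sinusoidal-labelled, type H and CD200-high libraries. Red arterial points lie above the blue points for nearly all arterial genes, and in the lower panel the green type H point is the highest for 22 genes.

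Capillary genes showed the largest median difference of the endothelial lists. Of 20 tested, 19 were called higher in arterial and 0 lower, with a median of 5.46. Cd36, a fatty acid transporter, stood at 9.07, 8.99 and 9.32 against 3.28, 3.93 and 2.77 (5.80 ± 0.36, adjusted p = 2.22e-06). Gpihbp1, which anchors lipoprotein lipase to capillaries, stood at 8.64, 8.85 and 8.56 against 1.14, 2.55 and 2.08 (6.76 ± 0.31, adjusted p = 1.97e-07). Fabp4, a fatty acid binding protein of capillaries and adipocytes, stood at 10.29, 10.41 and 10.33 against 4.49, 4.87 and 5.09 (5.53 ± 0.24, adjusted p = 1.47e-07).

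Some capillary genes were nearly without reads in the libraries labelled sinusoidal. Timp4, a metalloprotease inhibitor, had 5041, 5378 and 2205 reads in arterial and 0, 27 and 14 in the other group (adjusted p = 0.000137). Car4, a surface carbonic anhydrase, had 868, 574 and 364 reads against 0, 16 and 0 (adjusted p = 0.00538). Tcf15, a transcription factor of fatty acid handling endothelium, was at least 162-fold higher than the floor of 3 reads per library, since none of the 3 libraries labelled sinusoidal had a read. Meox2, its partner, had 1536 reads over the arterial libraries and 1 over the others, a ratio of 2294 (95% exact interval 411.2 to 90674, counting error only). Kcne3 was the 1 capillary gene not called.

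Receptors and ligands of vessel growth and identity followed the same direction in part. In the Notch pathway 6 of 18 genes were called higher and 0 lower. Notch1 stood at 5.58, 6.19 and 5.64 against 4.59, 3.83 and 4.41 (1.53 ± 0.33, adjusted p = 0.0109), and its call was lost without arterial replicate 2, where the adjusted p was 0.0549. Notch4, the endothelial Notch receptor, differed by 5.57 ± 0.72 (adjusted p = 0.000454). The nuclear partner Rbpj and the target Hes1 overlapped between the groups. Of 16 VEGF and angiopoietin genes, 12 were called higher and 0 lower: Flt1, a VEGF receptor and decoy, stood at 6.12, 6.49 and 6.34 against 0.51, 0.30 and 0.00 (6.05 ± 0.25, adjusted p = 1.41e-07). The ligand Angpt1 overlapped between the groups, at 5.72, 5.68 and 6.18 against 5.71, 5.64 and 5.93 (0.10 ± 2.07, adjusted p = 0.986). In the fit to the 6 libraries its difference was 0.10 ± 0.21 (adjusted p = 0.771).

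In the BMP and TGF-beta axis 10 of 22 genes were called higher and 0 lower. Acvrl1, the endothelial BMP receptor ALK1, differed by 4.50 ± 0.69 (adjusted p = 0.00140). Its target Id1, an inhibitor of DNA binding, stood at 7.40, 7.07 and 7.33 against 3.52, 2.77 and 3.47 (4.01 ± 0.23, adjusted p = 1.05e-06). Among genes of nitric oxide, caveolae and flow response 10 of 18 were called higher and 0 lower. Cav1, which builds caveolae, stood at 9.97, 10.39 and 10.27 against 4.79, 5.36 and 5.39 (5.03 ± 0.29, adjusted p = 1.24e-06). Nos3, which makes nitric oxide in endothelium, had 431, 403 and 329 reads against 24, 30 and 2 (adjusted p = 0.000931).

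Most wall matrix genes were higher in arterial. Of 25 elastic fibre and basement membrane genes, 21 were called higher in arterial and 0 lower, with a median difference of 4.15. Col4a1, a basement membrane collagen, stood at 8.96, 9.40 and 9.0 against 4.14, 4.13 and 4.72 (4.79 ± 0.20, adjusted p = 1.41e-07). Eln, elastin, had 317, 576 and 317 reads against 17, 0 and 0 (adjusted p = 0.00128). Of 16 coagulation genes, 8 were called higher and 1 lower, and the first count fell to 4 without arterial replicate 2 and to 5 without arterial replicate 3 or sinusoidal replicate 2. Procr, the endothelial protein C receptor, differed by 5.53 ± 0.73 (adjusted p = 0.000548). The 1 lower gene was F8, clotting factor VIII, which sinusoidal endothelium is known to make, with 0, 4 and 0 reads against 88, 25 and 16 (adjusted p = 0.0272). Its call was lost without arterial replicate 1 or 3 and without sinusoidal replicate 1 or 2.

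Genes of reticular stroma were higher in the arterial libraries by nearly the same amount as pan-endothelial genes. Of 37 tested, 28 were called higher and 1 lower, with a median difference of 3.99, and the middle of the list lay between 3.21 and 4.33 (25th and 75th percentiles). Cxcl12, a chemokine that retains stem cells and B cell precursors, stood at 11.78, 12.86 and 12.99 against 8.02, 8.71 and 9.16 (3.92 ± 0.45, adjusted p = 0.000215). Lepr, the leptin receptor, stood at 8.06, 9.07 and 9.31 against 4.55, 4.73 and 5.18 (3.99 ± 0.55, adjusted p = 0.000739). Adipoq, the adipokine adiponectin, stood at 8.28, 9.19 and 9.13 against 4.19, 4.49 and 5.60 (4.11 ± 0.51, adjusted p = 0.000383). In all 3 genes arterial replicate 1 was the lowest arterial library.

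The 37 stromal genes took 1.99% ± 0.639 of arterial reads and 0.221% ± 0.0582 of reads in the libraries labelled sinusoidal (SD, n = 3 each). The part of stromal RNA in the differences of genes that both stroma and endothelium express, Cxcl12 and Vcam1 among them, was not tested. The 1 stromal gene called lower was Ebf1, a factor of reticular cells and also of B cells (-1.65 ± 0.42, adjusted p = 0.0261). Its call was lost without arterial replicate 2 or 3 and without sinusoidal replicate 1 or 2. Ebf2 had 132, 72 and 147 arterial reads against none (at least 64.3-fold), and Ebf3 had 248, 638 and 607 against 0, 0 and 35 (adjusted p = 0.00817).

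Factors that act on blood stem cells overlapped in part with that list. Of 21 niche factors, 14 were called higher and 0 lower, and the fit to the 6 libraries called 18 higher and 1 lower. Kitl, stem cell factor, stood at 7.5, 7.99 and 8.49 against 2.94, 3.64 and 4.41 (4.33 ± 0.45, adjusted p = 0.000105). Among 26 chemokines and their receptors 7 were called higher and 0 lower, with 12 and 1 in the fit to the 6 libraries. When 1 library was left out the higher count lay between 3 and 10. It was 4 without arterial replicate 2, 3 without arterial replicate 3 and 4 without sinusoidal replicate 1 or 2. Cxcl16 differed by 6.30 ± 1.20 (adjusted p = 0.00545).

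The largest differences above 0 included genes known from cartilage, fibroblasts and endothelium, a grouping made after their values were seen. Of the 12 largest differences above 0, named by a rule that required 100 normalised reads and groups that did not overlap, Cd248 had 2570, 2877 and 2164 arterial reads against 20, 0 and 0 (adjusted p = 0.00228). Cd248 encodes endosialin of fibroblasts and pericytes. Col9a2, a cartilage collagen, had 779, 839 and 279 arterial reads against none (at least 295-fold higher). Prg4, lubricin of joint surfaces, had 3811, 265 and 1919 against 0, 10 and 0 (adjusted p = 0.00590), and Mfap5, a microfibril protein, had 2695, 3039 and 1702 against 19, 0 and 5 (adjusted p = 0.0103). The endothelial genes Timp4, Tcf15 and Meox2, described above, were also among the 12. Lrrn4cl and Efr3b had 2142 and 1848 arterial reads against 2 each, ratios of 1600 (95% exact interval 442.3 to 13217) and 1380 (95% exact interval 381.5 to 11404). The other 3 were Fgd5, Fam13c and Myoc.

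Of 10 chondrocyte genes, all had higher values in every arterial library than in any library labelled sinusoidal, where 21.7% of all genes tested did. Only 2 were called in the fit to 12 libraries, Cnmd and Matn1, and 8 in the fit to the 6. The 8 include Cnmd (adjusted p = 0.00573) but not Matn1 (adjusted p = 0.0581). The 2 calls in 12 libraries became 0 without any one arterial replicate or without sinusoidal replicate 3, and 1 without sinusoidal replicate 1. Col10a1, the collagen of hypertrophic chondrocytes, had 10410, 5480 and 4997 reads against 49, 15 and 58 (adjusted p = 0.0858, and 0.000421 in the fit to the 6 libraries). Col2a1, the main cartilage collagen, stood at 9.03, 9.43 and 8.61 against 4.68, 6.22 and 4.28 (3.96 ± 2.30, adjusted p = 0.345). In the fit to the 6 libraries its difference was 3.96 ± 0.47 (adjusted p = 0.00226).

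Osteoblast genes separated the groups far less. Of 28 tested, 5 were called higher and 0 lower, where 8.09% of all genes tested were called higher. In 14 of the 28 all arterial values lay above, where 21.7% of all genes tested did. The fit to the 6 libraries called 11 higher, where 11% of all genes tested were. When 1 library was left out, 2 to 4 were called higher. The count was 3 without arterial replicate 1 or 2, and 2 without arterial replicate 3 or sinusoidal replicate 1 or 2. Col1a1, the collagen of bone, overlapped at 10.94, 10.92 and 10.46 against 11.23, 9.87 and 10.67 (0.19 ± 0.61, adjusted p = 0.904). Bglap, osteocalcin, overlapped at 10.45, 10.88 and 10.81 against 11.69, 10.71 and 11.58 (-0.61 ± 0.67, adjusted p = 0.657). Reads of Bglap cannot be told from those of its near-identical copies. Of the 5 called, Ibsp, Spp1, Bgn and Wif1 differed by 1.58 to 2.07, and the largest difference was in Col3a1, a collagen of soft tissue and reticular fibres, at 8.78, 9.23 and 8.77 against 4.22, 4.01 and 4.29 (4.75 ± 0.96, adjusted p = 0.00805). Of 19 pericyte and smooth muscle genes, 4 were called higher and 0 lower, where 8.09% of all genes tested were called higher. The 4 became 2 without arterial replicate 2 or 3. Acta2, the actin of smooth muscle, was not called (2.13 ± 1.51, adjusted p = 0.454).

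**Figure D4:**
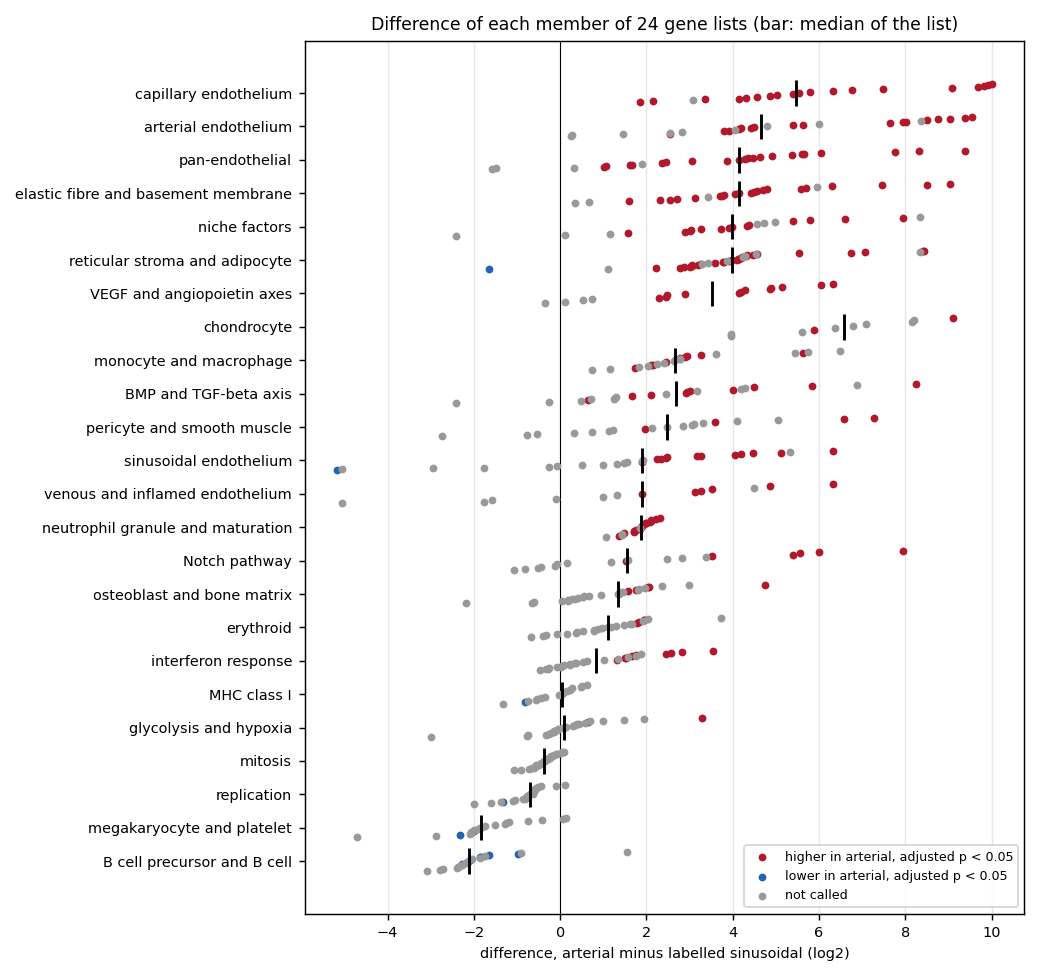
Difference in log2, arterial minus labelled sinusoidal, of every tested member of 24 gene lists (points, red called higher, blue called lower, grey not called), with a bar at each list's median. Endothelial, matrix and stromal lists lie well above 0, neutrophil genes form a narrow band near 1.87, MHC class I and glycolysis genes lie around 0, and megakaryocyte and B cell genes lie below 0.

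Neutrophil genes were higher in the arterial libraries. Of 21 neutrophil genes tested, 17 were called higher and 0 lower, and their differences lay in a narrow band from 1.05 to 2.32 with a median of 1.87. Ngp, a neutrophil granule protein, stood at 12.78, 12.75 and 13.26 against 10.90, 10.81 and 11.48 (1.87 ± 0.26, adjusted p = 0.000731). Lcn2, neutrophil lipocalin, differed by 2.10 ± 0.29 (adjusted p = 0.000668), and Chil3, a chitinase-like protein, by 2.10 ± 0.28 (adjusted p = 0.000644). The count was 9 without arterial replicate 3 or sinusoidal replicate 1 or 2. The 21 genes took 3.06% ± 0.661 of reads in arterial libraries and 0.967% ± 0.303 in those labelled sinusoidal (SD, n = 3 each), though both gates exclude CD45+ cells.

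Red cell genes followed in part, and most macrophage genes lay higher in arterial. The haemoglobin genes Hba-a1, Hba-a2, Hbb-bs and Hbb-bt were higher, by 1.77 to 1.95: Hbb-bs stood at 12.26, 11.05 and 11.69 against 10.31, 9.17 and 9.67 (1.95 ± 0.35, adjusted p = 0.00391). These genes come in near-identical pairs whose reads may be split. They were the only 4 of 25 erythroid genes called in 12 libraries, and 13 were called in the fit to the 6. Gata1, the erythroid and megakaryocyte factor, overlapped between the groups, at 6.55, 5.56 and 5.97 against 6.81, 6.55 and 6.77 (-0.68 ± 1.93, adjusted p = 0.887). In the fit to the 6 libraries its difference was -0.68 ± 0.26 (adjusted p = 0.114). Of 23 monocyte and macrophage genes, 9 were called higher and 0 lower, and 20 and 0 in the fit to the 6. In 22 of the 23 all arterial values lay above, where 21.7% of all genes tested did, and the median difference was 2.66. Slc40a1, the iron exporter ferroportin, stood at 7.78, 9.09 and 8.62 against 4.81, 6.01 and 5.99 (2.89 ± 0.38, adjusted p = 0.000485). Hmox1, which degrades haem, differed by 2.81 ± 0.45 (adjusted p = 0.00189). Other myeloid lists had few called genes, though their median differences were 1.89 (eosinophil, basophil and mast cell) and 1.66 (dendritic cell). Of 15 eosinophil, basophil and mast cell genes 0 were called in 12 libraries and 2 were higher in the fit to the 6. Of 15 dendritic cell genes 2 were called higher and 1 lower, where 8.09% and 2.14% of all genes tested were. Only 6 and 9 genes of these lists passed a filter of 100 reads.

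B cell precursor genes led the opposite side. Of 21 tested, 7 were called lower in arterial and 0 higher, 20 lower in the fit to the 6 libraries, and 20 had all 3 values labelled sinusoidal above all 3 arterial values, where 17.8% of all genes tested did. Ighm, the heavy chain of immunoglobulin M, stood at 9.06, 8.70 and 8.43 against 10.79, 10.54 and 10.41 (-1.85 ± 0.22, adjusted p = 0.000323). Vpreb3, of the pre-B cell, stood at 9.58, 8.57 and 8.18 against 11.01, 10.87 and 10.76 (-2.10 ± 0.51, adjusted p = 0.0213), and its call was lost without any single library other than arterial replicate 1. Ms4a1, the CD20 gene of mature B cells, was the exception, at 5.15, 3.87 and 5.49 against 3.44, 2.80 and 3.67 (1.54 ± 1.57, adjusted p = 0.632).

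The number of B cell genes called was 3 without arterial replicate 2, 2 without arterial replicate 3 and 3 without sinusoidal replicate 1 or 2. B cell genes took 0.464% ± 0.194 of arterial reads and 1.79% ± 0.0966 of reads in the libraries labelled sinusoidal (SD, n = 3 each). Both gates exclude CD45+ cells, a class to which B cells belong.

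Megakaryocyte genes shared the direction of the B cell genes. Of 20 tested, 2 were called lower in arterial and 0 higher, 11 lower in the fit to the 6 libraries, and 16 had values labelled sinusoidal that all lay above the arterial ones. Of all genes tested, 2.14% were called lower, 5.54% were lower in the fit to the 6 libraries and 17.8% lay apart in that way. Pf4, platelet factor 4, stood at 8.78, 7.95 and 6.98 against 10.19, 10.31 and 10.15 (-2.31 ± 0.47, adjusted p = 0.00777). Mmrn1, multimerin of platelets and lymphatic endothelium, stood at 5.89, 6.21 and 5.01 against 8.02, 7.72 and 7.37 (-2.0 ± 0.54, adjusted p = 0.0349), and its call was lost without any single library. In 12 libraries only 1 megakaryocyte gene then remained called. These genes took 0.241% ± 0.122 of arterial reads and 0.713% ± 0.141 of the others (SD, n = 3 each). Vwf, listed above with endothelium, had its groups apart in the same direction. The part of megakaryocyte RNA in that value was not tested.

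**Figure D5:**
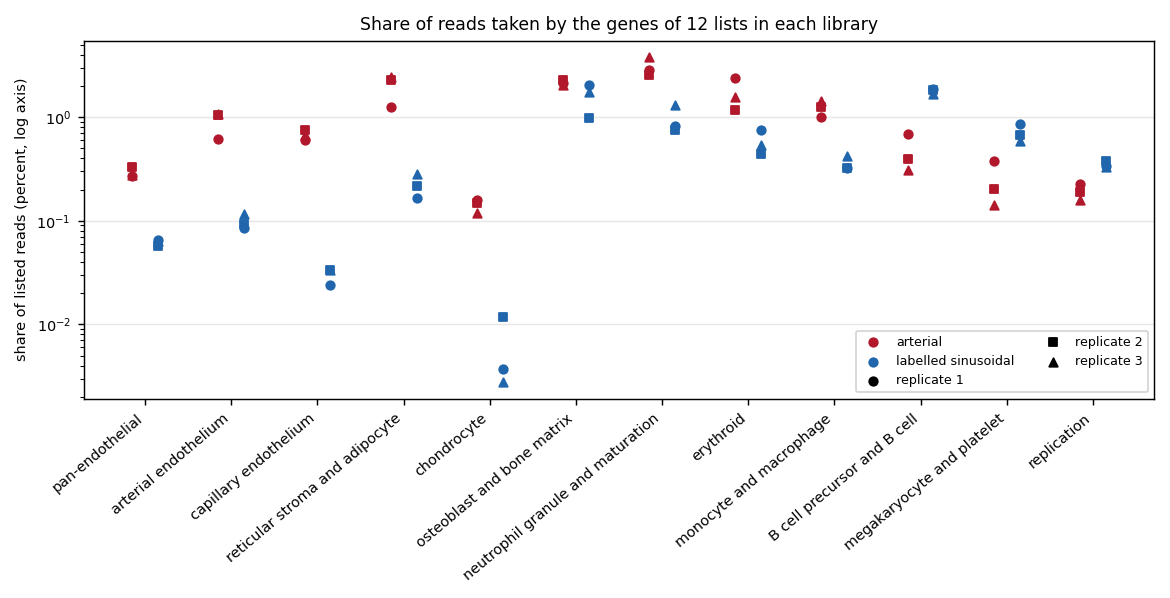
Share of listed reads in percent (log axis) taken by the genes of 12 lists in each arterial library (red) and each library labelled sinusoidal (blue), with the marker giving the replicate. Arterial replicate 1 holds the largest B cell, megakaryocyte and erythroid shares and the smallest stromal share of the 3 arterial libraries.

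Promoters are shown for some called members of lists that moved together, all of them with an ETS core in the window. ETS factors such as Erg and Fli1 are known to act in endothelium, megakaryocytes and other blood cells. The string GGAAGT, read on both strands, appears in capitals, so that a match on the other strand is printed as ACTTCC. Each window runs from 250 bases before to 50 bases after the RefSeq gene start (GRCm38.p6), printed 5′ to 3′ along the gene's strand.
Flt1: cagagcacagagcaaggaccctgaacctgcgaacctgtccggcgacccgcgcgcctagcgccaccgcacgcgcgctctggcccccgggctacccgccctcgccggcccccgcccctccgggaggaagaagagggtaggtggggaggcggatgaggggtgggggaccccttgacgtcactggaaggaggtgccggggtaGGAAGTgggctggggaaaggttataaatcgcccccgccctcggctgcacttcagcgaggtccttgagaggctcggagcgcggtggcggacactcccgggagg
Chil3: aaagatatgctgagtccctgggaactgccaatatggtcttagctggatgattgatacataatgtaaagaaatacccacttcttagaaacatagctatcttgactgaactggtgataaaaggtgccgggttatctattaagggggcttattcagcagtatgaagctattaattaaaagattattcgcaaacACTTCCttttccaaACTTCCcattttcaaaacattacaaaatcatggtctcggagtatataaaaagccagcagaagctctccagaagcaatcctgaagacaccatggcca
Vpreb3: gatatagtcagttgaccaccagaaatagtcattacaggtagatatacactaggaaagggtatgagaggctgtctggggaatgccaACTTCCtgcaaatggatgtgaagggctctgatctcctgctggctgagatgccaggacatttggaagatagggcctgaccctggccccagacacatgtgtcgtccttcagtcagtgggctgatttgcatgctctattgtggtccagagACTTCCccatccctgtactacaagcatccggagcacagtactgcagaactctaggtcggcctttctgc
Pf4: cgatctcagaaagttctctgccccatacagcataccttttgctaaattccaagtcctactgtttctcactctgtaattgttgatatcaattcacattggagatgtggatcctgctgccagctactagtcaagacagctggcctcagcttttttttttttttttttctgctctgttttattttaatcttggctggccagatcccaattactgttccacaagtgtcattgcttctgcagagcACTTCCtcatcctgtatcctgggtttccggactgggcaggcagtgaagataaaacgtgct
Mmrn1: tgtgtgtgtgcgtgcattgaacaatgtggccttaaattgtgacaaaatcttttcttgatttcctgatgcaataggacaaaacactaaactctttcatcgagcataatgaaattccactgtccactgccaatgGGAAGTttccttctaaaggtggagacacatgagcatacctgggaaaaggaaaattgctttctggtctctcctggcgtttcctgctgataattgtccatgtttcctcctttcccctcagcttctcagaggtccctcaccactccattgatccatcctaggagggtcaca

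The windows lie at chr5:147725962-147726261 on the minus strand (Flt1), chr3:106167515-106167814 on the minus strand (Chil3) and chr10:75948050-75948349 on the plus strand (Vpreb3). Those of Pf4 and Mmrn1 lie at chr5:90772185-90772484 and chr6:60944067-60944366, both on the plus strand. The string begins 10 bases before the start in Pf4, 18 and 165 in Vpreb3, 46 and 60 in Chil3, 52 in Flt1 and 118 in Mmrn1. Of 32851 RefSeq windows of this length, 23.8% hold it. Windows on chromosome 18 and repeats of a gene's identical window were left out, here and in the lists. It was found in 7 of 13 windows of megakaryocyte genes, 6 of 16 of B cell genes, 14 of 20 of neutrophil genes, 6 of 23 of pan-endothelial genes, 6 of 16 of capillary genes, 2 of 27 of arterial genes and 1 of 36 of stromal genes. The lists with the higher shares thus include genes lower in arterial (megakaryocyte) and genes higher in arterial (neutrophil). A match is a string of letters and no measured binding site, and both the string and the genes shown were chosen after their values were seen. Every window printed holds the string, so these windows do not show how common it is in the lists. Fli1 itself stood at 7.08, 6.80 and 6.89 in arterial and at 7.51, 7.35 and 7.20 in libraries labelled sinusoidal (-0.43 ± 0.23, adjusted p = 0.297).

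Few DNA replication genes passed the test in 12 libraries. Of 27 tested, 1 was called lower and 0 higher, where 2.14% of all genes tested were called lower. The fit to the 6 libraries called 9 lower, where 5.54% of all genes tested were. In 22 of the 27 all 3 values labelled sinusoidal lay above all 3 arterial values, where 17.8% of all genes tested did. The median difference was -0.69. Rfc3, a clamp loader subunit, stood at 5.35, 5.46 and 5.61 against 6.79, 6.90 and 6.71 (-1.32 ± 0.31, adjusted p = 0.0175), and its call was lost without arterial replicate 1 or 2 and without sinusoidal replicate 1 or 2. Mcm2, of the replicative helicase, stood at 5.92, 6.45 and 6.05 against 6.85, 6.99 and 6.88 (-0.77 ± 0.63, adjusted p = 0.527). Of 28 mitosis genes 0 were called in 12 libraries and 1 in the fit to the 6. Precursor B cells are known to divide fast, and the shares of B cell and replication genes were both higher in the libraries labelled sinusoidal. The part of B cell RNA in the replication genes was not tested.

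The 12 largest differences below 0, named by the same rule, were in genes with 0 to 2 reads in at least 1 arterial library. Smim10l2a had 101, 215 and 110 reads in the libraries labelled sinusoidal and none in arterial, at least 28.8-fold lower. Slc5a9, a sugar transporter, had 86, 187 and 541 reads against 3, 0 and 3 in arterial (adjusted p = 0.00538). These 2 calls held without each library in turn. Gcsam, a signalling protein of germinal-centre B cells, had 3263, 4357 and 3773 reads against 371, 0 and 27 (adjusted p = 0.0374). Its call was lost without any single library other than arterial replicate 1. The other 9 were Kcnj5, Cpne5, Scn4a, Lrrn4, Bend3, Zap70, Spo11, Phldb3 and Cacna2d4. Counting Gcsam, 10 of the 12 lost their call in 2 to 6 of the 6 fits without 1 library.

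Several programmes had few called genes. Of 17 MHC class I genes, 0 were called higher and 1 lower, with a median difference of 0.05, and members lay on both sides: 4 had all arterial values above and 6 had all values labelled sinusoidal above, where 21.7% and 17.8% of all genes tested did. The 1 called was H2-Q7, at 8.18, 8.09 and 8.22 against 8.96, 8.86 and 9.09 (-0.81 ± 0.21, adjusted p = 0.0276), and its call was lost without any single library. Reads of these closely related genes may be split between copies. In the fit to the 6 libraries 2 were lower. H2-K1 stood at 10.05, 10.16 and 10.51 against 10.24, 10.08 and 10.14 (0.08 ± 0.21, adjusted p = 0.865). Of 25 glycolysis and hypoxia genes, 2 were called higher and 0 lower, near the 8.09% of all genes tested, with a median of 0.09, and 1 was called without any single library other than arterial replicate 2. Of 21 sterol and fatty acid synthesis genes, 0 were called in either direction, with a median of -0.03, and 1 was called lower in the fit to the 6 libraries. In contrast 9 of 28 interferon response genes were called higher and 0 lower, and 6 without arterial replicate 2 or sinusoidal replicate 2. Ifitm3, an antiviral membrane protein, stood at 9.56, 9.88 and 9.94 against 7.96, 7.98 and 8.16 (1.76 ± 0.16, adjusted p = 4.86e-05).

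Of 23 stem and progenitor genes tested, 5 were called higher in arterial and 1 lower, where 8.09% and 2.14% of all genes tested were. The fit to the 6 libraries called 7 higher and 3 lower, where 11% and 5.54% of all genes tested were. The higher ones included Cd34 (4.06 ± 0.36, adjusted p = 3.44e-05) and Procr, which endothelium also expresses. Mecom, a stem cell and endothelial transcription factor, had 378, 154 and 262 arterial reads against none (at least 138-fold higher), and Fgd5 had 569, 248 and 278 against none (at least 181-fold higher). The lower one was Sox4, whose call was lost without any single library other than arterial replicate 1. Kit, the stem cell factor receptor, overlapped at 6.24, 6.46 and 5.42 against 6.05, 6.05 and 6.17 (-0.05 ± 0.29, adjusted p = 0.951).

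All of these differences are relative to the effective library size behind the deposited values. When the libraries were scaled to the median of the pan-endothelial genes instead, the median gene moved by -3.85 and every difference moved with it. The shift makes the median level of the pan-endothelial genes equal in all libraries by construction. Of these 25 genes, 7 were then called higher and 10 lower. Of 20 capillary genes 12 were then called higher and 3 lower, and of 26 arterial genes 8 and 3. Of 26 sinusoidal genes 0 were called higher and 17 lower, and of 37 stromal genes 3 and 5. All 21 neutrophil genes and the 4 haemoglobin genes, whose largest difference on the deposited scale was 2.32, then lay below 0, and B cell and megakaryocyte genes lay further below. Quantile normalisation moved the median gene by -0.21 and scaling to the same listed total moved it by -0.12, and under these the split of calls was 1312 higher to 590 lower and 1272 to 569.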

How the data were processed

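RNA of sorted mouse marrow cells was sequenced after low-input full-length cDNA synthesis, with reads of 150 bases per the labels' protocols. The authors deposited 1 table of log2 CPM over 17362 genes. Every deposited log2 value gave a whole number of reads (100%, tolerance 0.01) once 0.5 read was taken off, which gave the listed reads and effective sizes used here. Trimmomatic, STAR, SAMtools, featureCounts, deepTools and R 4.3 are named by the submitters' processing notes, which name a human genome build for these mouse samples. The scaling method and the use of strand are not given in the sources used here, so reads of overlapping and antisense genes cannot be told apart.

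Genes with at least 10 reads at the mean effective size in at least 3 libraries were tested (17086, with 276 removed), with limma 3.58.1 (R 4.3.3), a mean-variance trend and 12 libraries in 1 fit (8 residual degrees of freedom). The script was tested on simulated data. Differences between replicates of a group exceeded counting noise, at a chi-square per degree of freedom of 52.8 to 77.8. Intervals and floors cover counting error only. Labels give shared mouse numbers. Deviations from group means correlated at 0.127, 0.0888 and 0.0752 in same-numbered arterial and sinusoidal libraries and at -0.09 to 0.00 in the others.

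Genes were named by rule: the 5 sorting antigens, the first 3 and the 3 smallest adjusted p of each list, and the 12 largest called differences each way with at least 100 reads in the higher group. Members and lists (40 lists, 733 genes, 695 tested, 76 in more than 1 list) were chosen with earlier results of these data known. Outside the rule, chosen after their values were seen, are Angpt1, Cd36, Clec4g, Clu, Col10a1, Ebf1, Ebf2, Ebf3, Erg, F8, Fli1, Gata1, Hes1, Hey1, Kcne3, Ms4a1, Nebl, Plvap, Rbpj, Sele, Sox17, Sox4, Tal1, Vpreb3 and Vwf, and any list member named only to complete a count. Alternatives changed the samples, replicate block, trend, filter, pseudocount, scaling and weights.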

Additional observations from a re-analysis of the deposited data

How the results depend on the processing

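The 1748 calls became 2829 in the fit to the 6 libraries and 1019 to 1546 when 1 library was left out. Those higher in arterial numbered 866 to 1200 without 1 library. Those lower, 365 in the report, numbered 142 to 385 without 1 library, 947 in the 6 libraries alone, 217 without the trend, 825 with a pseudocount of 10 CPM, 590 after quantile normalisation, 569 with the same listed total and 739 with voom weights. With the replicate number as a block 1675 genes were called, 1350 higher and 325 lower. In the 6 libraries with the block, 2590 were called and 846 were lower. Scaling to equal medians of the pan-endothelial genes gave 12856 calls, 196 higher and 12660 lower, and 33 of 119 named genes changed sign. Relative to the median gene, an alternative chosen after seeing the data, that shift gave 1292 calls, 1140 higher and 152 lower. The cause of these changes was not tested.

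Of 249 called list members and named genes, 180 kept their call without each library in turn. 12 differences changed sign, all of genes not called. Without 1 library the ranges were -0.059 to 0.19 for Angpt1, -0.17 to 0.51 for Col1a1, -0.050 to 0.18 for H2-K1, -0.26 to 0.26 for Kit, -2.70 to 2.02 for Nebl, -0.24 to 0.16 for Rbpj and -0.73 to 0.11 for Tfpi. Relative to the median gene after quantile normalisation the difference was 0.14 for Kit and 0.13 for Rbpj, and with voom weights it was 0.038 for Kit. Groups of 3 libraries limit precision, and a fold against a group without reads is a bound against 3 reads per library.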
